A study of Mus musculus with 16 samples.

Results

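The genes described here encode the proteins of the cytosolic ribosome. They were chosen by name: every probe set of the array that the platform annotation pairs with exactly 1 gene symbol was kept where that symbol was Rpl or Rps followed by a number, Rpsa, Rplp0, Rplp1 or Rplp2, and ribosomal S6 kinases and pseudogenes were left out. This gave 50 of the 18193 genes with such a probe set, covered by 106 probe sets. Of the 50, 26 carry the symbols of large subunit proteins and 23 those of small subunit proteins. Rps19bp1 also met the rule, although it encodes a protein that binds Rps19 and is no part of the ribosome. Each gene was read through its brightest probe set, the one with the highest mean over all arrays; 24 genes had more than 1 probe set and 26 had 1. A further 110 probe sets list several symbols that include a ribosomal protein gene, and 31 ribosomal protein symbols appear only on these, so those genes are not members and are not named.

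The samples came from E11.5 mouse kidney rudiments, in which an epithelial tube, the ureteric bud (UB), grows into metanephric mesenchyme (MM), the cells that will form nephrons. Total RNA went through 2 rounds of amplification and onto Affymetrix MOE430_v2 arrays, 16 in all. The 4 UB arrays were wild type; each held 3 to 9 buds freed from rudiments with collagenase and separated by hand. The 5 Hox null arrays held MM of Hoxa11, Hoxd11 double null embryos, laser captured from 7 µm frozen sections of urogenital ridges; the labels speak of multiple sections and do not say how many embryos entered a sample. The 4 captured wild-type arrays held MM taken the same way from sections of kidney rudiments, with 3 to 4 mesenchymes pooled per array. The 3 hand-dissected wild-type MM arrays, numbered 5 to 7 in the labels, each held the mesenchyme of an individual rudiment, freed with collagenase. Genotype was therefore compared within laser capture and tissue within hand dissection. Replicates are described as separate embryos; the sources used here give no strain, litter or scan day, and the null and wild-type captured samples also differ in what was sectioned.

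A ribosome is built from a small subunit, which reads the mRNA, and a large subunit, which joins amino acids, each a folded ribosomal RNA carrying a set of proteins present in 1 copy per subunit, apart from the paired acidic proteins of the stalk. Cells make these proteins in matched amounts, because copies that find no partner are broken down. In vertebrates their mRNAs begin with a run of pyrimidines, the 5′ terminal oligopyrimidine (TOP) element, through which the mTOR kinase pathway sets how strongly they are translated, so that mRNA level and protein output can differ. Growing embryonic tissue makes many ribosomes, and loss of a single ribosomal protein gene copy can give tissue-restricted defects: in mouse, Rpl38 is needed for the translation of a set of Hox mRNAs and for skeletal patterning, and in humans RPS19, RPS24, RPS10 and RPL11 are among the genes mutated in Diamond-Blackfan anaemia.

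Start-site sequences are shown for the members called in UB against MM that have a window, and for the 3 with the largest difference between captured and hand-dissected MM, since the pyrimidine run is what these genes are known to share. Each line gives 20 bases before to 20 bases after an annotated RefSeq start on mouse build GRCm38.p6, 5′ to 3′ on the strand of the gene, with the letters CTTTC or CTTCC in capitals.
Rps10, chr17:27635225-27635264, minus strand: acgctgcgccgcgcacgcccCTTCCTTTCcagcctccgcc
Rps24, chr14:24490658-24490697, plus strand: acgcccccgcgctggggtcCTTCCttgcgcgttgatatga
Rpl27a, chr7:109519175-109519214, plus strand: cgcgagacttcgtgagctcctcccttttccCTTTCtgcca
Rps15, chr10:80292411-80292450, plus strand: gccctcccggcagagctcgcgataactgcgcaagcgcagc
Rps9, chr7:3704021-3704060, plus strand: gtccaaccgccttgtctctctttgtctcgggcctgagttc
Rpl27, chr11:101442225-101442264, plus strand: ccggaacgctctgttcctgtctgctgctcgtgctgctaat
Rpl7l1, chr17:46782637-46782676, minus strand: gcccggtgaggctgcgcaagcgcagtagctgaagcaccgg
Rpl39, chrX:37085203-37085242, minus strand: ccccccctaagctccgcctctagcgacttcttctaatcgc
The window of Rps10 holds CTTCC and CTTTC sharing bases, that of Rps24 CTTCC and that of Rpl27a CTTTC, while a second annotated start of Rps24 has neither. The windows of Rps15, Rps9, Rpl27, Rpl7l1 and Rpl39 hold neither string. A pyrimidine run can have other letters, as in tctctcttt of the Rps9 window and cttcttct of the Rpl39 window. A window without the strings can thus still hold a run. Windows were found for 44 of the 50 members, 52 windows in all, some genes having several starts. On the sense strand, CTTTC was in 12 of the 52 windows, or 23.1%, against 5.49% of the 32851 windows of all genes. On the antisense strand it was in 2 windows, or 3.85%, against 4.86% of all. CTTCC was in 7 windows on the sense strand, or 13.5%, against 8.81% of all, and in 9 on the antisense strand, or 17.3%, against 9.82%. In the longer window of 250 bases before to 50 after the start, CCGGAA on either strand, the core bound by ETS factors, was in 28 of 52 windows, or 53.8%, against 14.9% of all, and GCCATNTT, the core of the YY1 motif, in 8, or 15.4%, against 6.05%. These are matches of letters in windows around annotated starts, not mapped binding sites.

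The members were among the brightest genes of the array. Their mean signal had a median of 48277, against 629 over all genes, in the authors' MAS5 units, in which the trimmed mean of each array is 1500. By mean level 39 of the 50 lay above the 90th percentile of genes and 26 above the 99th. The brightest was Rps3, a small subunit protein at the mRNA entry site, with a mean of 76930 over the 16 arrays, and Rpl7a of the large subunit followed with 75384. At the other end were 3 members that no comparison tested, because they passed the array median on too few arrays. Rpl39l and Rpl3l are paralogs known for expression in testis and in muscle; they had mean signals of 97.5 and 25.5. The probe set of Rps16, a core small subunit protein, averaged 9.59, far below the array medians of 113 to 209, so this probe set gives no measure of Rps16. Among tested members the dimmest were Rps27, with a mean of 436, and Rpl39, with 715. Probe brightness differs between probe sets, so these levels rank probe sets and not amounts of mRNA.

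On each array the level of the 47 remaining members was summarised by their median on the log2(signal + 36.3) scale, the offset being the 25th percentile of all signals. The 4 UB arrays had medians of 15.16, 15.34, 15.57 and 15.69. The 5 Hox null arrays had 15.48, 15.80, 15.90, 15.62 and 16.13, and the 4 captured wild-type arrays 16.05, 15.91, 15.59 and 15.85. The 3 hand-dissected MM arrays had 15.09, 15.24 and 15.09. The hand-dissected MM arrays were thus lowest, below every captured array, while the null and captured wild-type arrays overlapped and 1 UB array lay within the range of hand-dissected MM. As a share of all signal on an array, the 50 members took 1.70% on average in UB, 2.19% in Hox null, 2.14% in captured wild-type MM and 1.49% in hand-dissected MM. Of the 47 genes, 36 had their lowest group mean in hand-dissected MM, while 25 had their highest in Hox null MM and 17 in captured wild-type MM. The median SD between arrays of a group was 0.26 on the log2 scale for members, against 0.40 over 11577 genes of all levels. Among members it ran between 0.17 for Rps3a1 and 0.73 for Rpl27a. Spread was not compared among genes of like brightness.

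**Figure D1:**
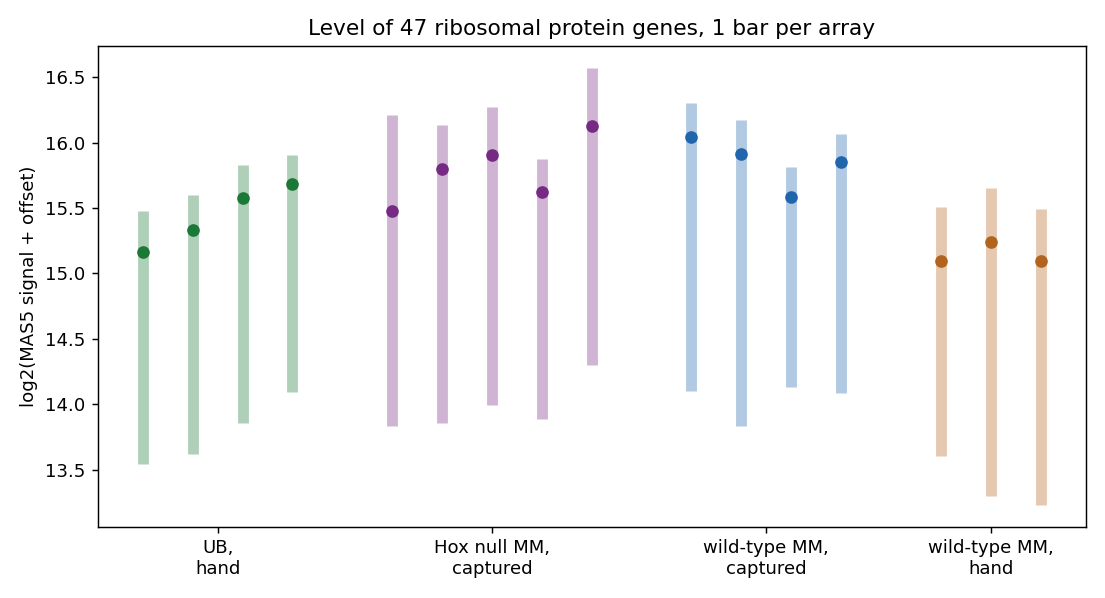
Level of the 47 tested ribosomal protein genes on each of the 16 arrays, on the log2(MAS5 signal + 36.3) scale; the dot is the median over genes and the bar spans the 25th to 75th percentile. The medians of the 3 hand-dissected MM arrays, 15.09 to 15.24, lie below those of all 9 captured arrays.

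The members also moved as a block between arrays of 1 group. Hox null array 5 held the highest signal of its group for 39 of the 47 genes, and of all 16 arrays for 35. UB array 4 was highest in its group for 41 genes and UB array 1 lowest for 33. Captured wild-type array 3 was lowest in its group for 36. Such shifts are shared by the genes of an array, so the 47 genes are not independent readings of a condition.

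Across the whole series, most markers followed the labelled tissues under hand dissection: all 11 tested UB markers were higher in UB than in MM, with summed signals of 200968 to 246648 against 3419 to 4122, and 10 of 11 mesenchyme markers were lower. The other one, Cited1, a nephron progenitor gene, was higher in UB, at 256 in UB and 61.8 in MM (difference 1.70 ± 0.38, adjusted p = 0.00629). Hoxa11 read 91.8 to 197 in Hox null arrays against 526 to 840 in captured wild-type arrays (log2 difference -2.23, adjusted p = 0.0114). Hoxd11 overlapped, at 192 to 482 against 318 to 587; whether its probes lie in the deleted part is not given. No pair of arrays held identical values, and p-values measure the spread between these samples.

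The comparison of UB with hand-dissected MM asks which genes differ between the tissues. UB arrays pooled 3 to 9 buds and hand-dissected MM arrays held 1 mesenchyme, so tissue and pooling cannot be told apart here. Of the 47 ribosomal protein genes 40 had a difference above 0, against 50.4% of all 12435 genes tested, with a median of 0.19 on the log2 scale against 0.01. Calls at an adjusted p under 0.05 (limma, Benjamini-Hochberg over all probe sets) were 6 higher and 1 lower, or 12.8% and 2.13% of members. Over all genes tested, 13.9% were higher and 14.6% lower, so the members' shares were not above these. Bright genes were called higher less often. Among the brightest 10% of genes, 5 of 36 members were higher and 0 lower, while 5.88% of the other 1208 genes were higher. Among the brightest 1%, 1 of 25 members and 1 of 100 other genes were higher, and 0 members and 4 other genes were lower. Whether these shares differ was not tested. The genes called higher were Rps9, Rps10, Rps14 and Rps24 of the small subunit and Rpl27 and Rpl7l1 of the large subunit's families; Rpl39 was lower. In these bulk samples, fewer cells of a type and less RNA per cell cannot be told apart.

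Rps24, whose human counterpart is mutated in Diamond-Blackfan anaemia, had the smallest adjusted p among the members. Its signals were 18164, 16911, 17378 and 17122 in UB, against 10018, 7805 and 6680.0 in hand-dissected MM. Every UB array lay above every MM array, and the difference was 1.11 ± 0.17 (SE), or 2.15-fold (adjusted p = 4.29e-04). It was called under all 16 alternatives, with differences of 0.78 to 1.26.

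Rps14 of the small subunit platform, whose human counterpart is lost in the 5q- syndrome, read 36585, 49612, 57335 and 59351 in UB, against 19341, 38665 and 31441 in hand-dissected MM. The groups overlapped at UB array 1, and the difference was 0.80 ± 0.22 (SE) (adjusted p = 0.0232). Rps10, which sits on the head of the small subunit, read 21386, 31336, 33609 and 37439.5 in UB, against 16164, 22237 and 17822 in MM, and again UB array 1 lay within the MM range (difference 0.71 ± 0.19, adjusted p = 0.0189). Rps9, a protein at the mRNA channel, read 9819.8, 14907, 14426 and 16634 in UB, against 7794, 9126 and 8928 in MM. Here the groups did not overlap (difference 0.67 ± 0.19, adjusted p = 0.0265).

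In the large subunit, Rpl27 read 29863, 41324, 50302 and 51138 in UB, against 22372, 32193 and 25712 in hand-dissected MM. UB array 1 lay within the MM range, and the difference was 0.67 ± 0.19 (SE) (adjusted p = 0.0238). Rpl7l1, a paralog of Rpl7, read 9565, 10773, 12751 and 14703 in UB, against 7646, 8039.7 and 6941 in MM, without overlap (difference 0.64 ± 0.18, adjusted p = 0.024). The gene called lower was Rpl39, a small X-linked protein that lines the exit tunnel for new proteins. It read 616, 585, 584 and 541 in UB, against 1189.9, 1105 and 881 in MM. All UB values lay below all MM values (difference -0.82 ± 0.21, adjusted p = 0.0143).

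Genes well known for other roles did not pass the test. Rpsa, also called the laminin receptor, had a mean of 54387 ± 9617 in UB and 45210.4 ± 6805 in MM (SD, n = 4 and 3; difference 0.26 ± 0.15, adjusted p = 0.24). Rps6, the target of S6 kinase, had 14792 ± 2573 in UB and 14457 ± 3446 in MM, with a difference of 0.04 ± 0.19, adjusted p = 0.9. For Rpl38 the difference was 0.14 ± 0.13, adjusted p = 0.48. Groups did not overlap for 5 genes higher in UB and for 1 lower, where 17.5% and 18.8% of all genes did so. The count of 6 rested on single arrays. It was 1 without UB array 4 and 19 without UB array 1, and it was 2 without UB array 2, UB array 3, MM array 5 or MM array 7. Rps9, Rps10, Rps14, Rpl27 and Rpl7l1 each lost the call without MM array 5, UB array 3 or UB array 4, and some of them without other arrays, at adjusted p = 0.0514 to 0.104 and differences that stayed between 0.52 and 0.80. Rpl39 lost it without MM array 5 (-0.73, adjusted p = 0.0511) or MM array 6 (-0.78, adjusted p = 0.0535). The choice of probe set also mattered: with the mean of all probe sets of a gene, Rpl7l1 differed by 0.23 (adjusted p = 0.32) and Rps9 by 0.45 (adjusted p = 0.13), and through the plain _at probe sets Rps10 differed by 0.13 (adjusted p = 0.70) and Rps9 by 0.72 (adjusted p = 0.10). Without the filter on dim probe sets, Rps14 (adjusted p = 0.0617) and Rpl27 (adjusted p = 0.0649) were not called. Weighting arrays by their fit gave 24 higher and 2 lower, where the background then was 24.5% and 23.4%. Centring each array on its median gave 13 higher and 1 lower, against 18.8% and 11.9% of all genes.

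Markers of other cells moved with this comparison: 7 of 7 tested endothelial, 5 of 6 erythroid and 3 of 3 macrophage markers were lower in UB than in hand-dissected MM. Summed erythroid signals were 8854 to 38828 in UB, against 64141 to 72987 in MM. Endothelial sums were 2664 to 4719 in UB, against 14362 to 21310 in MM, and macrophage sums 362 to 603 in UB, against 3614 to 10690 in MM. The ratio of 3′ to 5′ signal of Gapdh averaged 8.72 in UB and 42.5 in MM. The MM arrays ran from 22.1 to 69.3. For Actb the ratio averaged 13.1 in UB and 13.8 in MM. No marker was listed at 0. Their part in the ribosomal protein differences was not tested.

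**Figure D2:**
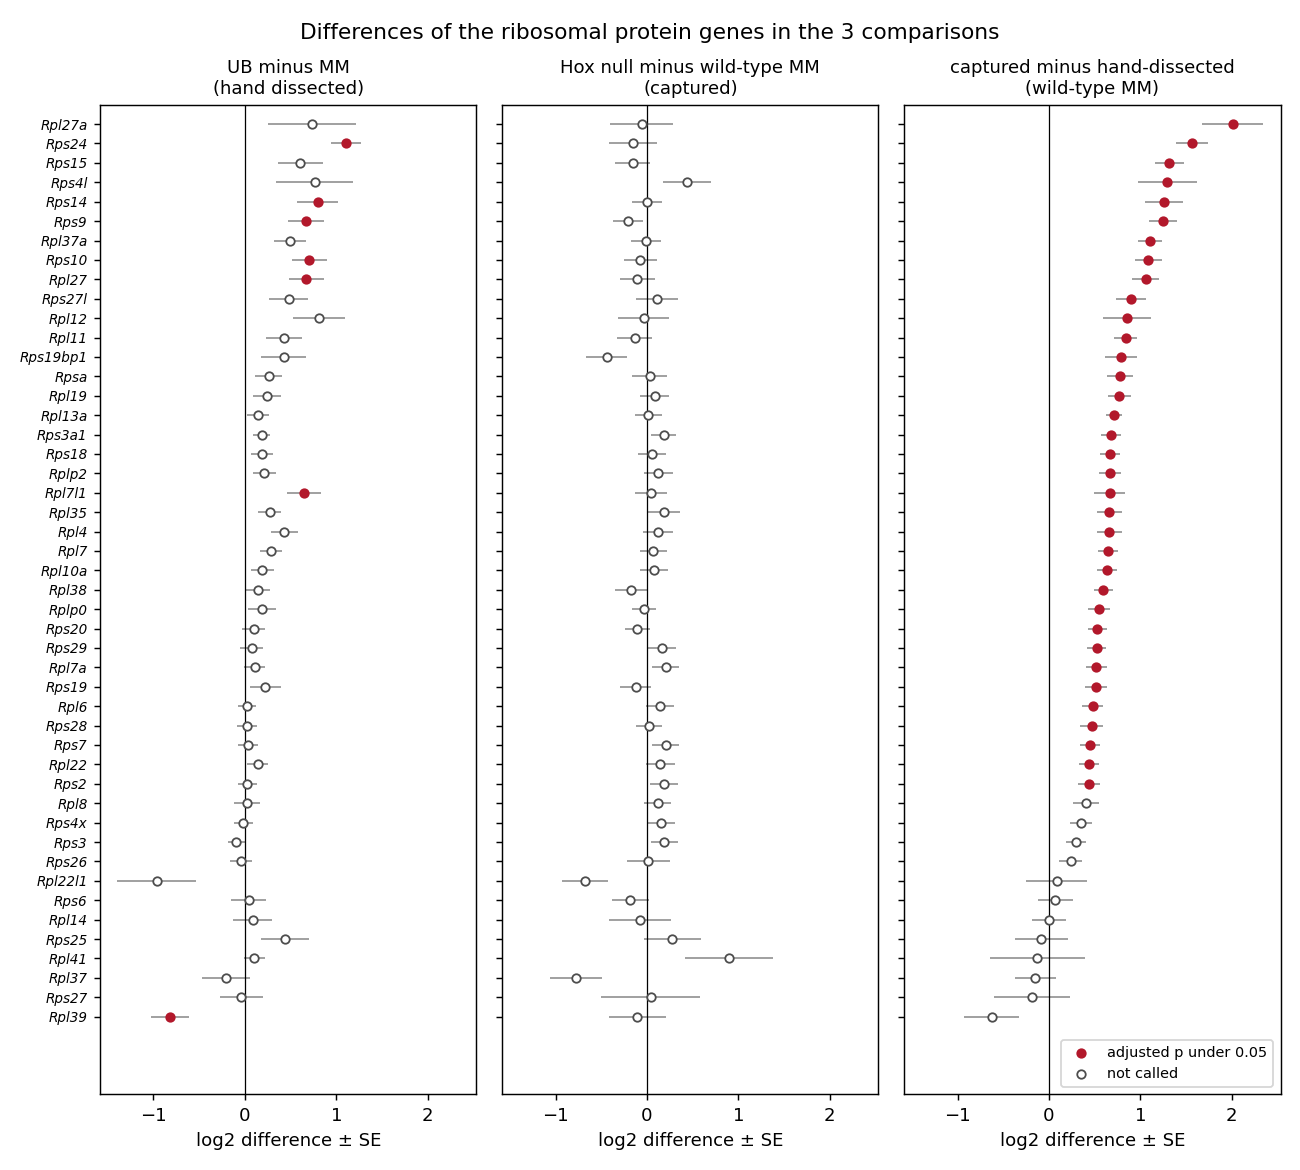
Log2 difference with its standard error for the 47 tested members in UB minus MM (hand dissected), Hox null minus wild-type MM (captured) and captured minus hand-dissected wild-type MM, with filled points for an adjusted p under 0.05. The panel for captured against hand-dissected MM holds 35 filled points right of 0, that for UB against MM 6 right and 1 left of 0, and that for Hox null against wild type none.

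Loss of Hoxa11 and Hoxd11 was compared within laser-captured MM. No member passed the test in either direction: 0 of 47 were higher and 0 lower by limma, with 2 lower at an unadjusted p under 0.05, where the background was 0.748% of genes higher and 0.995% lower. A count of 0 in 47 is close to that background and sets nothing apart. The median difference was 0.03 on the log2 scale, against -0.10 over all 12161 genes, and 27 of 47 differences were above 0, against 41.6% of all genes. Relative to other genes the direction turned with quantile normalization, which gave 9 of 47 above 0 and a median of -0.08, against -0.04 over all genes. The typical standard error of a difference was 0.17 and the largest 0.54, so small changes could not be seen.

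Members with well-known roles did not pass the test between genotypes. Rpl38, the regulator of Hox mRNA translation in mouse, read 42179, 57919.5, 72003, 56785 and 82226 in Hox null MM, against 80337, 71189.7, 59619.8 and 63855 in captured wild-type MM. The groups overlapped (difference -0.17 ± 0.18, adjusted p = 0.65). Rps6 averaged 13428 ± 3123 in Hox null MM and 15167 ± 3168 in captured wild-type MM (SD, n = 5 and 4; difference -0.18 ± 0.20, adjusted p = 0.67). Rplp0, the base of the ribosomal stalk and a common reference gene, averaged 63063 ± 9594 in Hox null MM and 64418 ± 7122 in wild-type MM (difference -0.04 ± 0.13, adjusted p = 0.91). Rps19, the gene most often mutated in human Diamond-Blackfan anaemia, averaged 34665 ± 8239 in Hox null MM and 37216 ± 4138 in wild-type MM (difference -0.12 ± 0.17, adjusted p = 0.73).

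The genes with an unadjusted p under 0.05 were Rpl37 and Rpl22l1. Rpl37 read 558, 1003, 1238, 1138 and 1417 in Hox null MM, against 1744, 1907, 2012 and 1509 in captured wild-type MM. Every null array lay below every wild-type array; Rpl37 was the single member without overlap, and it was lower, as were 5.77% of all genes, while 0 members and 3.26% of all genes were higher without overlap (difference -0.78 ± 0.29, adjusted p = 0.18). Rpl22l1 read 4287, 3506, 6427, 5314 and 7306 in Hox null MM, against 7075, 12218, 8550.0 and 6454 in wild-type MM (difference -0.68 ± 0.25, adjusted p = 0.19). Rpl41, which encodes the shortest ribosomal protein, had the largest positive difference, 0.90 ± 0.48 (SE), and it rested on 1 array. Its signals were 95484, 85385, 101569, 72032 and 134183 in Hox null MM, against 102637, 13439, 63108 and 79518 in captured wild-type MM, where array 2 was far below the other 3 (adjusted p = 0.34). Its other 3 probe sets differed by 0.56, 0.21 and -0.17, and without captured array 2 the difference of the brightest was 0.25.

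A single probe set did pass the test, and it belonged to Rps9. Probe set 1434624_x_at read 14557, 16431, 18158, 12362 and 20002 in Hox null MM, against 2559.5, 2064, 1717 and 1356 in captured wild-type MM. Every null array lay above every wild-type array. The means in UB and hand-dissected MM were 1554 and 1575. The difference was 3.08 ± 0.21 (SE) (adjusted p = 6.45e-05), and it stayed between 2.92 and 3.38 and called in all 18 fits that follow single probe sets. The other Rps9 probe sets did not show it. Probe set 1433689_s_at, the brightest, read 15662, 15095, 17740.2, 18265 and 22658 in Hox null MM, against 24322, 22144, 16612 and 19452 in wild-type MM (difference -0.21 ± 0.16, adjusted p = 0.52). Probe set 1426958_at read 9967, 6221, 7531, 2950.1 and 4210.1 in Hox null MM, against 3389, 4825, 2439 and 4973 in wild-type MM (difference 0.59 ± 0.35, adjusted p = 0.39). The 3 probe sets disagreed, and through its brightest one Rps9 was not called. Names ending in _x_at mark probe sets with probes that can also match other transcripts. Such names also belong to the brightest probe sets of 14 of the 50 members. Rps10, Rps14 and Rps24, called higher in UB against MM, are among these. Averaging the probe sets of each gene gave Rps9 a difference of 1.15 (adjusted p = 0.0192), the single call that this setting made among the members. Across probe sets, 1 of 96 was higher and 0 lower, against 0.59% and 1.17% of all probe sets.

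**Figure D3:**
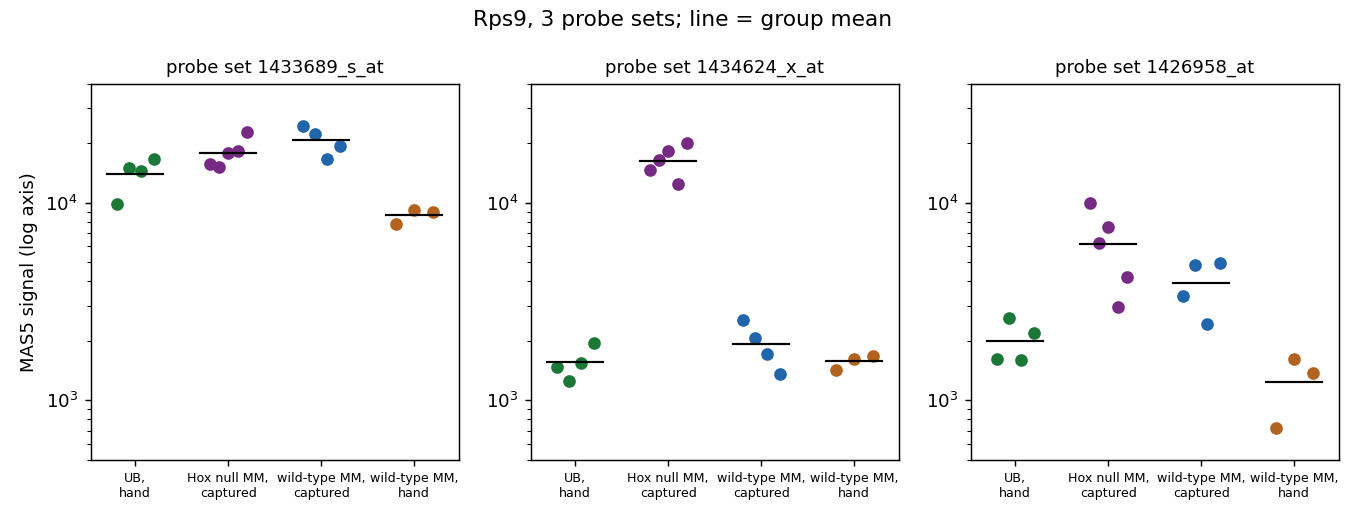
MAS5 signal (log axis) of the 3 probe sets of Rps9 on each array, with the group mean as a line. Only for 1434624_x_at do the 5 Hox null arrays, 12362 to 20002, stand above the captured wild-type arrays, 1356 to 2560.

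Of the 103 tested probe sets that list several symbols with a ribosomal protein gene among them, 1 was higher in Hox null MM, by 3.56, and 4 were lower; they cannot be given to a gene. Rpl22, a large subunit protein that in mouse represses Rpl22l1, differed between its probe sets. Probe set 1416603_at read 9733, 15158, 13701, 14934 and 66765 in Hox null MM, against 55976, 55102, 34382 and 37369.9 in captured wild-type MM. Null array 5 lay above all wild-type arrays, and the other 4 null arrays lay below them all (difference -1.29 ± 0.45, adjusted p = 0.16). Without null array 5 the difference was -1.76 (adjusted p = 0.00525). The brightest probe set of Rpl22 gave 0.15 ± 0.16, adjusted p = 0.66.

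Among marker lists, 2 of 6 tested neuronal markers were higher in Hox null MM, with summed signals of 3815 to 34155 against 2402 to 5731 in captured wild-type MM. Of 7 tested macrophage markers 1 was lower, with sums of 1159.5 to 13865 against 10192 to 20685. Of 7 gonad and adrenal markers 2 were tested and 0 called, with sums of 822 to 9083 against 632 to 918. No UB, mesenchyme, endothelial or erythroid marker was called. The part of all these markers in the ribosomal protein values was not tested.

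The largest pattern among the members lay between the ways of taking tissue labelled as wild-type MM. In wild-type MM, 35 of 47 ribosomal protein genes were higher in laser-captured than in hand-dissected samples and 0 were lower, where the background was 13.6% of genes higher and 9.88% lower. The median difference was 0.63 on the log2 scale, against 0.08 over all 12172 genes. Both subunits took part: 18 of 24 tested large subunit genes and 16 of 22 small subunit genes were higher, with medians of 0.64 and 0.52. Arrays did not overlap for 34 genes that were higher, against 19.5% of all genes, and for 0 that were lower, against 14.7%. This comparison shares the 3 hand-dissected arrays with UB against MM and the 4 captured wild-type arrays with the genotype comparison. Method here goes together with pooling, since captured arrays pooled 3 to 4 mesenchymes and hand-dissected arrays held 1. Method and pooling thus cannot be told apart. Markers of UB, mesenchyme, erythroid cells and macrophages also differed between these samples, and their part was not tested.

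The differences were of modest size, with a median of 1.59-fold and a range of 1.35-fold to 4.03-fold among the 35 genes. Rpl27a of the large subunit had the largest. It read 5714, 5952, 2803 and 5302 in captured MM, against 669, 1539 and 1472 in hand-dissected MM, without overlap (difference 2.01 ± 0.34, adjusted p = 0.00232). Rps24 read 28479, 27167, 20008 and 21155 in captured MM, against 10018, 7805 and 6680.0 in hand-dissected MM (difference 1.57 ± 0.18, adjusted p = 4.12e-04). Rps15, on the head of the small subunit, read 38174, 32048, 26339 and 30573 in captured MM, against 10423, 14936 and 12879 in hand-dissected MM (difference 1.32 ± 0.16, adjusted p = 5.42e-04). In each of these genes the lowest captured array lay above the highest hand-dissected array.

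Among small subunit genes, Rps4l, a paralog of the X-linked Rps4x, read 6367, 7031, 5352 and 5009.8 in captured MM, against 1217, 3429 and 3192 in hand-dissected MM (difference 1.30 ± 0.32, adjusted p = 0.0138). Rps14 read 81048, 74293, 54608 and 67408 in captured MM, against 19341, 38665 and 31441 in hand-dissected MM (difference 1.26 ± 0.21, adjusted p = 0.00209). Rps18, a protein of the small subunit head, averaged 84045 ± 10696 in captured MM and 52529 ± 4429.9 in hand-dissected MM (SD, n = 4 and 3; difference 0.67 ± 0.11, adjusted p = 0.00212). Rpsa averaged 77811 ± 13004 in captured MM and 45210.4 ± 6805 in hand-dissected MM (difference 0.78 ± 0.14, adjusted p = 0.00307). With the mean of its probe sets Rpsa differed by 0.39 (adjusted p = 0.16), its dim other probe set giving 0.01.

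In the large subunit, Rpl13a, known in human cells for a second role in silencing interferon-induced transcripts, averaged 71889 ± 4667 in captured MM and 43869.5 ± 2812 in hand-dissected MM (difference 0.71 ± 0.09, adjusted p = 6.59e-04). Rpl11, which binds Mdm2 when ribosome assembly fails, averaged 30558 ± 3252 in captured MM and 17064 ± 1919 in hand-dissected MM (difference 0.84 ± 0.13, adjusted p = 0.00155). Rpl38 averaged 68750.4 ± 9084 in captured MM and 45214 ± 2138 in hand-dissected MM (difference 0.60 ± 0.11, adjusted p = 0.00313). The stalk base Rplp0 averaged 64418 ± 7122 in captured MM and 44159.9 ± 6904 in hand-dissected MM (difference 0.55 ± 0.12, adjusted p = 0.00888). With quantile normalization Rpl38 (0.24, adjusted p = 0.0575) and Rplp0 (0.23, adjusted p = 0.0918) were not called.

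The 12 genes that were not called were Rpl8, Rpl14, Rpl22l1, Rpl37, Rpl39, Rpl41, Rps3, Rps4x, Rps6, Rps25, Rps26 and Rps27. Rps6 averaged 15167 ± 3168 in captured MM and 14457 ± 3446 in hand-dissected MM, a difference of 0.07 ± 0.19 (SE) (adjusted p = 0.82). Rpl14 averaged 11460.5 ± 1444 in captured MM and 11668 ± 3047 in hand-dissected MM (adjusted p = 0.99). Rpl39 had the most negative difference, -0.63 ± 0.30, adjusted p = 0.15; without captured array 1 it was -0.87 (adjusted p = 0.0417). Rpl41 again turned on captured array 2: without it the difference was 0.52 (adjusted p = 0.0445), in place of -0.13.

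How other genes of like brightness differed depended on the range taken. Among the brightest 10% of genes, 30 of 36 members were higher in captured MM with a median of 0.64, while the other 1182 genes had a median of 0.04 and 18.0% were higher. In the brightest 1%, 21 of 25 members were higher with a median of 0.55, and of the other 97 genes 45.4% were higher, with a median of 0.30 and 89.7% of differences above 0. In the comparison of UB with MM the same genes by rank gave a median of 0.14 for members and 0.01 for other genes, and between genotypes 0.12 and 0.19. The arrays' own upper end differed too: the 99th percentile of signal averaged 35528 in captured and 32175 in hand-dissected MM, and the highest signal ran from 88511 to 132555 on captured and from 85784 to 89811 on hand-dissected arrays. Forcing the same distribution on all arrays by quantile normalization left 26 members higher, with a median of 0.31.

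**Figure D4:**
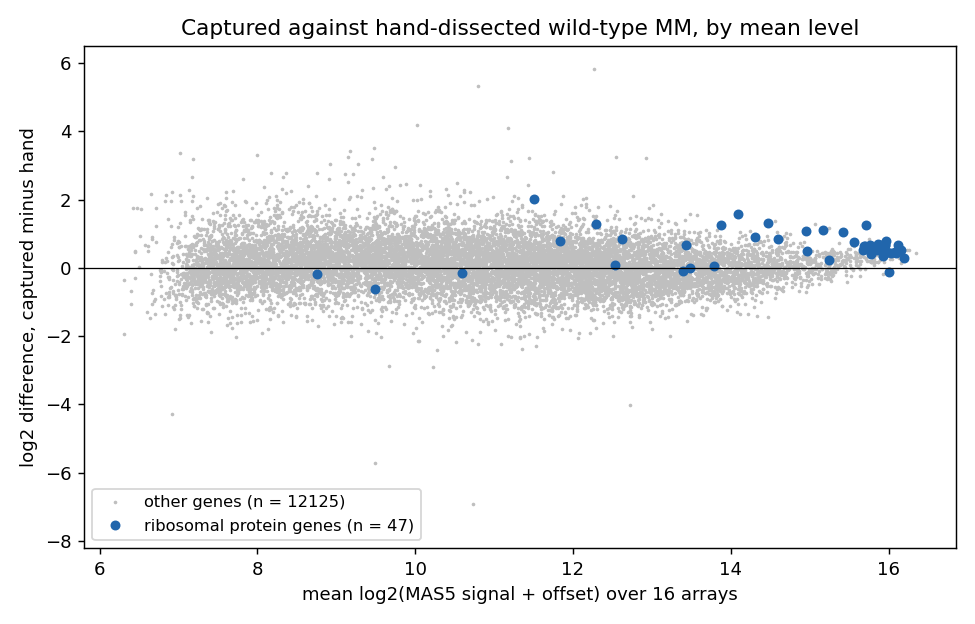
Log2 difference between captured and hand-dissected wild-type MM against the mean level of each gene over 16 arrays, for the 47 members and all other tested genes. Most members lie at the bright end and above 0, with a median of 0.63; of other genes in the brightest 1%, 89.7% also lie above 0, with a median of 0.30.

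Other measures moved with the method. UB markers were higher in captured MM for 10 of 11 tested genes, with summed signals of 12033 to 65427 against 3419 to 4122 in hand-dissected MM; the UB tip receptor Ret averaged 3163 in captured MM and 208 in hand-dissected MM. Erythroid markers were higher for 4 of 6, with sums of 86680 to 167819 against 64141 to 72987, and macrophage markers for 4 of 6, with sums of 10192 to 20685 against 3614 to 10690. Of 10 tested mesenchyme markers 1 was higher and 3 lower, among them the nephron progenitor gene Six2, at 4712 in captured MM and 21975 in hand-dissected MM. The ratio of 3′ to 5′ signal, a sign of RNA or amplification length, averaged 19.8 in captured and 42.5 in hand-dissected MM for Gapdh, and 17.1 and 13.8 for Actb. The control probe set for the 3′ part of 18S ribosomal RNA read 4237 to 13642 on captured and 672 to 1027 on hand-dissected MM arrays. The part of each in the ribosomal protein differences was not tested. Leaving out any 1 of the 7 arrays gave 28 to 39 members higher and 0 or 1 lower, and a median of 0.56 to 0.71. Over all genes, 6.99% to 13.4% were then higher and 5.14% to 10.8% lower.

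Where a gene had several probe sets, they could be set against the brightest. For UB against MM, 39 of 49 other probe sets of 21 members, or 79.6%, had the sign of the brightest, where over all genes with several tested probe sets it was 68.5%. For captured against hand-dissected MM it was 40 of 48, or 83.3%, against 59.9%. In these comparisons 81.25% and 88.4% of member probe sets had a difference above 0, against 50.4% and 55.2% of all genes. Such a one-sided shift alone gives many shared signs, so these shares do not measure agreement between probe sets. For Hox null against wild type it was 25 of 49, or 51.0%, against 64.0%, in a comparison whose differences lay around 0. None of the 21 members had probe sets called in opposite directions in any comparison. Over all genes with several tested probe sets, 17 of 5300 did for UB against MM. For captured against hand-dissected MM it was 212 of 5160. Beside such shares, a count of 0 in 21 sets nothing apart. The median distance of another probe set from the brightest was 0.21, 0.25 and 0.32 on the log2 scale for UB against MM, null against wild type and captured against hand-dissected, below the 0.36, 0.38 and 0.49 over all genes. Probe sets of a gene share its transcript and often its probes' neighbourhood, so they are not replicates. The brightest probe set of Rps24 differed by -0.15 between genotypes and its other 4 tested probe sets by -0.88 to -0.57, none of them called.

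**Figure D5:**
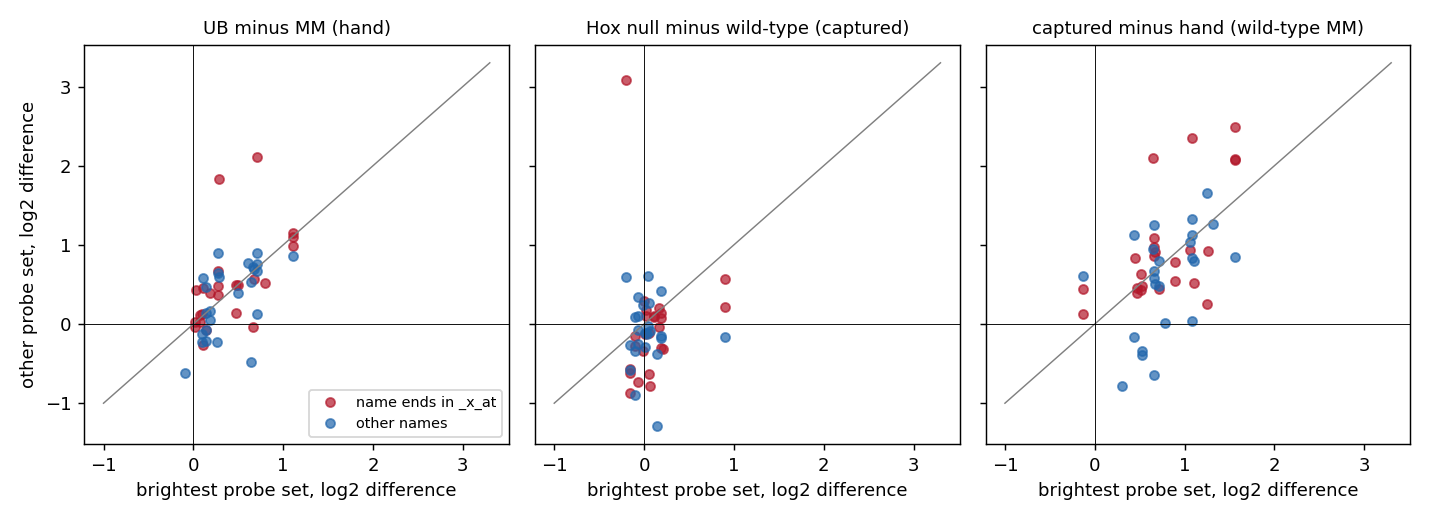
Log2 difference of each further probe set of a member against that of the member's brightest probe set, for the 3 comparisons, with the line of equality; red marks names ending in _x_at. In the middle panel 1 point, a probe set of Rps9 at 3.08, stands far from the rest.

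Other probe sets gave the more positive difference in 22 of 49 cases for UB against MM, 13 of 49 for Hox null against wild type and 22 of 48 for captured against hand-dissected MM. Rps10 probe set 1439374_x_at read 2113, 6454, 7619 and 16729 in UB, against 1342, 1819.9 and 1294 in hand-dissected MM, with 6858, 7567, 9088 and 7098 in captured wild-type MM. Its differences of 2.11 for UB against MM and 2.35 for captured against hand-dissected MM were the highest of 6 probe sets, while 1436384_at gave 0.13 and 0.04 and was not called in either. Rpl7 probe set 1426163_x_at read 16874, 31266, 30167 and 34594 in UB, 42415, 39544, 28060.2 and 24817 in captured wild-type MM and 6048, 9588 and 7712 in hand-dissected MM. It differed by 1.83 and 2.10 in the comparisons against hand-dissected MM, where the brightest Rpl7 probe set differed by 0.28 and 0.64. For Rps24 all 5 tested probe sets were higher in both comparisons, by 0.86 to 1.15 for UB against MM and by 0.84 to 2.49 for captured against hand-dissected MM. Some probe sets ran against the brightest. Rpl7l1 probe set 1439780_at read 1745, 3534, 1824 and 1282 in UB, 1224, 1319, 2713 and 2122 in captured wild-type MM and 2879, 3200.0 and 2240.4 in hand-dissected MM. It differed by -0.48 and -0.64 in the comparisons against hand-dissected MM, not called, where the brightest gave 0.64 and 0.66. Rps3 probe set 1455600_at read 13738, 14973, 15318 and 14334 in captured MM, against 23723, 26351 and 25024 in hand-dissected MM, and was the single member probe set called lower in that comparison (difference -0.78 ± 0.11, adjusted p = 0.00128), while the brightest gave 0.30 ± 0.11, adjusted p = 0.0631. Over all member probe sets, 69 of 95 were higher and 1 lower in captured MM, against 16.3% and 8.51% of all probe sets, and for UB against MM 22 of 96 were higher and 2 lower, where 12.4% of all probe sets were higher and 23.9% were called in either direction. Probe sets with several symbols gave 73 of 104 higher and 4 lower in captured MM.

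Reading each gene through its brightest probe set with a plain _at name, which is designed to match 1 transcript, left 23 genes. For captured against hand-dissected MM, 13 were then higher and 1 lower, with a median of 0.66, against 12.1% and 10.4% of all genes. For UB against MM, 4 were higher and 2 lower, with a median of 0.44, where 13.9% of all genes were higher and 14.9% lower.

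Some members have a paralog on the array. Rps27, a zinc-finger protein of the small subunit, read 434, 656, 426 and 147 in captured MM, against 453, 514 and 334 in hand-dissected MM, and overlapped (difference -0.19 ± 0.41, adjusted p = 0.78). Its paralog Rps27l, which is induced by p53, averaged 23910.2 ± 399 in captured MM and 13159.6 ± 3642 in hand-dissected MM (difference 0.89 ± 0.16, adjusted p = 0.00343). Rps27 was read through 1 dim probe set, with a mean of 436 over all arrays. Probe brightness differs between probe sets, so these levels do not compare the mRNA amounts of Rps27 and Rps27l. For Rpl22 the difference was 0.44 ± 0.11, adjusted p = 0.0154. It was not called in 6 of 16 alternatives: with quantile normalization (0.07, adjusted p = 0.39), median centring (0.24, adjusted p = 0.0735), 1 fit over all groups (adjusted p = 0.0788) or the mean of probe sets (adjusted p = 0.0589), and without hand-dissected array 5 (adjusted p = 0.0504) or 7 (adjusted p = 0.0538). Rpl22l1 gave 0.08 ± 0.33, adjusted p = 0.88. In UB, Rpl22l1 read 8652, 2736, 2786 and 3861, against 14703, 6723 and 4862 in hand-dissected MM; 3 of the 4 UB arrays lay below all MM arrays and the difference of -0.96 ± 0.43 (SE) was not called (adjusted p = 0.13). Without UB array 1 it was -1.33 (adjusted p = 0.0112). Rpl7 and Rpl7l1 were both higher in captured MM, by 0.64 and 0.66, although Rpl7l1 was not called with the mean of its probe sets (0.20, adjusted p = 0.35) or without hand-dissected array 7 (0.61, adjusted p = 0.0675). Rps4l was higher, and Rps4x differed by 0.35 ± 0.12, adjusted p = 0.0523. Differences between paralogs were not tested.

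Genes outside the ribosome itself were taken from lists chosen for their role. Their counts stand beside shares over all genes of 13.9% higher and 14.6% lower for UB against MM, 0.748% and 0.995% for Hox null against wild type, and 13.6% and 9.88% for captured against hand-dissected MM. Of 76 mitochondrial ribosomal protein genes, whose products build the separate ribosome of the organelle, 34 were higher and 1 lower in captured MM, with a median of 0.51; 17 were higher and 1 lower in UB against MM, with a median of 0.40; and 0 were higher and 2 lower in Hox null MM. Mrpl52 averaged 14474 in captured MM and 5732 in hand-dissected MM (difference 1.32 ± 0.15, adjusted p = 4.20e-04). Fau, whose product carries the small subunit protein eS30 fused to a ubiquitin-like part, was higher in captured MM, at 26762 ± 4459 against 15032 ± 2092 in hand-dissected MM (difference 0.83 ± 0.15, adjusted p = 0.00343).

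Ribosome assembly factors, which fold and cut the ribosomal RNA in the nucleolus, were higher in UB for 12 of 53 and lower for 0, with a median of 0.34, where 13.9% of all genes were higher and 14.6% lower. Nucleolin, Ncl, which acts on early ribosomal RNA, read 28135, 35456, 35817 and 35076 in UB, against 13677, 20182 and 19432 in hand-dissected MM, without overlap (difference 0.93 ± 0.16, adjusted p = 0.00119). Las1l, of the complex that cuts the spacer before the large subunit RNA, averaged 6046 ± 1604 in UB and 2372 ± 266 in hand-dissected MM (difference 1.30 ± 0.24, adjusted p = 0.00181). Nop14, a factor of the small subunit precursor, differed by 1.41 ± 0.28, adjusted p = 0.00287. Between captured and hand-dissected MM 10 of 53 were higher and 5 lower, against 13.6% and 9.88% of all genes, with a median of 0.11, and between genotypes none was called.

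RNA polymerase I genes, which transcribe the ribosomal RNA, were higher in UB for 3 of 17, including the factor Ubtf (1.32 ± 0.35, adjusted p = 0.0162), and for 2 of 17 in captured MM with 1 lower; these counts are near the shares of 13.9% and 13.6% over all genes. In Hox null MM 1 was lower, Polr1d, a subunit shared with RNA polymerase III, which read 7079.8, 9573, 11812, 14789.5 and 12536 in Hox null MM, against 21402, 23406, 22850.5 and 18961 in captured wild-type MM (difference -0.99 ± 0.20, adjusted p = 0.0368). Of 34 translation factors, 3 were higher and 2 lower in UB against MM, and 14 higher and 5 lower in captured against hand-dissected MM. Naca, of the complex that meets new proteins at the ribosome, led the higher ones in captured MM (1.38 ± 0.14, adjusted p = 2.46e-04), and Eif4b, a helicase partner, was lower (-0.57 ± 0.10, adjusted p = 0.00266). Of 20 regulators around Myc and mTOR, 2 were higher and 2 lower in UB, and 3 higher and 4 lower in captured MM. Mycn, a driver of ribosome production in embryonic tissue, averaged 11949 ± 947 in UB and 6712 ± 938 in hand-dissected MM (difference 0.83 ± 0.17, adjusted p = 0.00327). Mxd4, a Myc antagonist, averaged 2855 ± 702 in UB and 10140.4 ± 2073 in hand-dissected MM (difference -1.83 ± 0.25, adjusted p = 1.96e-04).

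The 5 genes whose 4 group means lay closest to the mean profile of the members, among 11530 other genes, were Timm10 and Ndufa8, which encode mitochondrial proteins, Trmu, a mitochondrial tRNA-modifying enzyme, and 3110040N11Rik and 2210016L21Rik. Their root mean square distance from the profile was 0.017 to 0.026 on the log2 scale, over 4 group means. The members' own profile was -0.13 in UB, 0.25 in Hox null MM, 0.24 in captured wild-type MM and -0.37 in hand-dissected MM, relative to its mean over groups.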

How the data were processed

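The 16 arrays measured signal for 45037 probe sets after 64 control probe sets were left out. The deposited values are intensities that the authors made with MAS5, per the submitters' processing notes, with no version stated; tested on the files, the trimmed mean of each array (2% at either end) is 1500. RNA had been amplified in 2 rounds with TargetAmp, with 30 ng of poly-inosine carrier, per the labels' protocols. Genes were named through the platform annotation, where 34945 probe sets have 1 symbol, 932 several and 9160 none. Start windows came from RefSeq tables of GRCm38.p6.

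From the deposited intensities, log2(signal + 36.3) was tested with limma 3.58.1 in R 4.3.3 (lmFit, eBayes with trend), each comparison on its own arrays. Probe sets were kept where they exceeded the array median on a number of arrays no lower than the size of the smaller group, and p-values were adjusted by Benjamini-Hochberg over all kept probe sets; the threshold was 0.05. Fold changes are on the log2(signal + 36.3) scale and understate changes of dim genes. The number of arrays, 3 to 5 in a group, limits precision. Alternatives covered the offset, the filter, quantile normalization, median centring, array weights, 1 fit over all groups, the choice of probe set and leaving out each array; the comparison with the brightest genes was added after seeing the data. The fit was tested on simulated data. Named members were the paralog pairs and members with known special roles on the array, the 3 brightest and 3 dimmest, all called members of a comparison (the 5 with the largest difference where over 10 were called in a direction), and the 5 whose probe sets disagreed most; Rpl14, Rpl37 and Rps4x were named after their values were seen. The members, lists and tests were chosen with earlier results of these data known. Replicate numbers were not taken as pairs: deviations of same-numbered null and captured wild-type arrays correlated at -0.05 to 0.07.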

Additional observations from a re-analysis of the deposited data

Results flagged for a closer look

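Within groups of 4 or 5 arrays, 93 checks of a member in a group found 5 where the highest array stood apart from the others by Dixon's test; chance gives about 1 in 20. In 4 of the 5 the array was Hox null 5. Rpl11 read 44920.5 there, against 23137 to 27426 on the other null arrays. Rps10 read 56262 there, against 30128 to 37385, and Rps24 read 41615, against 16142 to 22312. Rpl39l, which was too dim to test, read 684 on the same array, against 58.2 to 214. The fifth was the probe set of Rps16 on UB array 4, with 51.6 against 1.3 to 8.0 on the other UB arrays, at the floor of the scale.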

How the results depend on the processing

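Between captured and hand-dissected MM, the count of members higher stayed at 26 to 39 of 47 or of 50 under all alternatives but the plain _at probe sets (13 higher and 1 lower of 23). The median difference was 0.31 with quantile normalization, against -0.04 over all genes, and 0.44 with median centring, against -0.12. With median centring the members' median minus that of all genes was 0.55, as in the main fit. Leaving out 1 array gave 28 to 39 higher, 0 to 1 lower. Signs turned for Rps20 (-0.40, adjusted p = 0.42) and Rps3 (-0.78, adjusted p = 0.00128) with plain _at probe sets, and for Rpl41 without captured array 2 (0.52, adjusted p = 0.0445; -0.46 to 0.52 over all arrays left out in turn).

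For UB against MM, counts of members higher and lower were 24 and 2 with array weights, and 13 were higher with median centring. With 1 fit over all groups 0 were lower, and 2 were lower with plain _at probe sets (median 0.44). Leaving out 1 array gave 1 to 19 members higher and 0 to 2 lower. Over all genes, 9.58% to 19.7% were then higher and 10.1% to 18.8% lower. Between genotypes, 0 members were called in either direction under every alternative but the mean of probe sets, with 1 higher, Rps9 (1.15, adjusted p = 0.0192, against -0.21 through its brightest probe set). The median was 0.33 with median centring. That setting shifts members and other genes alike (the median of all genes was 0.20, in place of -0.10); it changed the calls over all genes to 82 higher and 15 lower, in place of 91 and 121, and for captured against hand-dissected MM to 890 and 1922, in place of 1659 and 1202.

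With quantile normalization the members' median minus that of all genes was -0.05 between genotypes, in place of 0.13.

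With replicate numbers 1 to 4 as a replicate block, 0 members were higher and 0 lower between genotypes, with a median of -0.04. The cause of these changes was not tested. Dim members (Rpl39l, Rpl3l, Rps16) and probe sets with several symbols stay without a result, and 3 to 5 arrays a group limit what small differences can show.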
